A study of Rattus norvegicus with 14 samples.

Results

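The scaffold proteins of the PSD-95, SAPAP and Shank families were followed at the RNA level through 10 genes: Dlg1, Dlg2, Dlg3, Dlg4, Dlgap1, Dlgap2, Dlgap3, Shank1, Shank2 and Shank3. All probe sets that the array's annotation assigns to 1 of these genes alone were taken, which gave 20 of the 15923 probe sets in the table. A probe set is a group of short oligonucleotides that together measure a stretch of a transcript. Of the 20, 15 lay above a cutoff for dim signals and were tested, and they represent 8 of the genes. The other 5 were dim, and they include the sole probe sets of Dlg2 and Dlgap2.

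RNA came from CA3, the hippocampal subfield with dense connections among its pyramidal cells, microdissected from 14 male Long-Evans rats aged 3 to 4 months, 1 array per rat. The 7 rats of the learning group swam 8 trials, 8 min apart, in an unfamiliar water maze that held orienting spatial cues and a visible platform in a constant place. The 7 control rats swam as many trials to a visible platform that changed place, in surroundings without informative cues. All 14 had learned a standard water maze 2 to 3 weeks earlier and had a probe trial of 90 s without platform 1 h after the last trial, directly before the tissue was taken. Cues and platform movement differed together, so their effects cannot be told apart, and no untrained rats were analysed here.

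These proteins form the core of the postsynaptic density beneath excitatory synapses. The Dlg proteins are membrane-associated guanylate kinases, whose PDZ domains hold NMDA receptor subunits, the auxiliary subunits of AMPA receptors, and adhesion molecules at the membrane. SAPAP proteins, encoded by the Dlgap genes, bind the guanylate kinase domain of the Dlg proteins on one side and the PDZ domain of the Shank proteins on the other. Shank proteins form a deeper layer that reaches Homer, metabotropic glutamate receptors and the actin cytoskeleton. In rat hippocampus the RNAs of several members, Shank1 and Dlgap3 among them, are also found in dendrites.

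No member was called higher or lower in the learning rats. With limma and Benjamini-Hochberg adjustment over all 9520 tested probe sets, 0 of the 15 tested probe sets passed an adjusted p of 0.05, where 3.35% of all tested probe sets did, 2.55% above and 0.798% below the control rats. Before adjustment 4 of the 15 had p under 0.05, against 19.9% of all tested. Of these 4, 3 were positive (Dlg1, Dlg3 and Shank2) and 1 negative (Dlg1), where 9.34% of all tested were positive and 10.6% negative at that level. The groups overlapped at every member probe set, tested or dim, and they did not overlap at 2.10% of all tested probe sets. A fold change above 0 was found at 13 of the 15, and the median of the 15 was 0.10 on the log2 scale. Over all tested probe sets 42.0% were above 0 and the median was -0.02. With the brightest tested probe set of each gene alone, 7 of 8 members were above 0, with a median of 0.04. Over all 6836 genes taken in that way, 36.1% were above 0 and the median was -0.03. With each array left out in turn, 11 to 13 of the 15 were above 0. The number was 12 with the dentate markers as covariate, 11 with the hexokinase or the beta-actin ratio, 10 with the spike-in level and 9 with the Gapdh ratio. It was 5 of 15 with the probe set balance, described below, as covariate, where 49.2% of all tested were above 0. The 95% intervals of 11 of the 15 lay within a 1.5-fold change in either direction, and those of 9 within a 1.2-fold change.

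**Figure D1:**
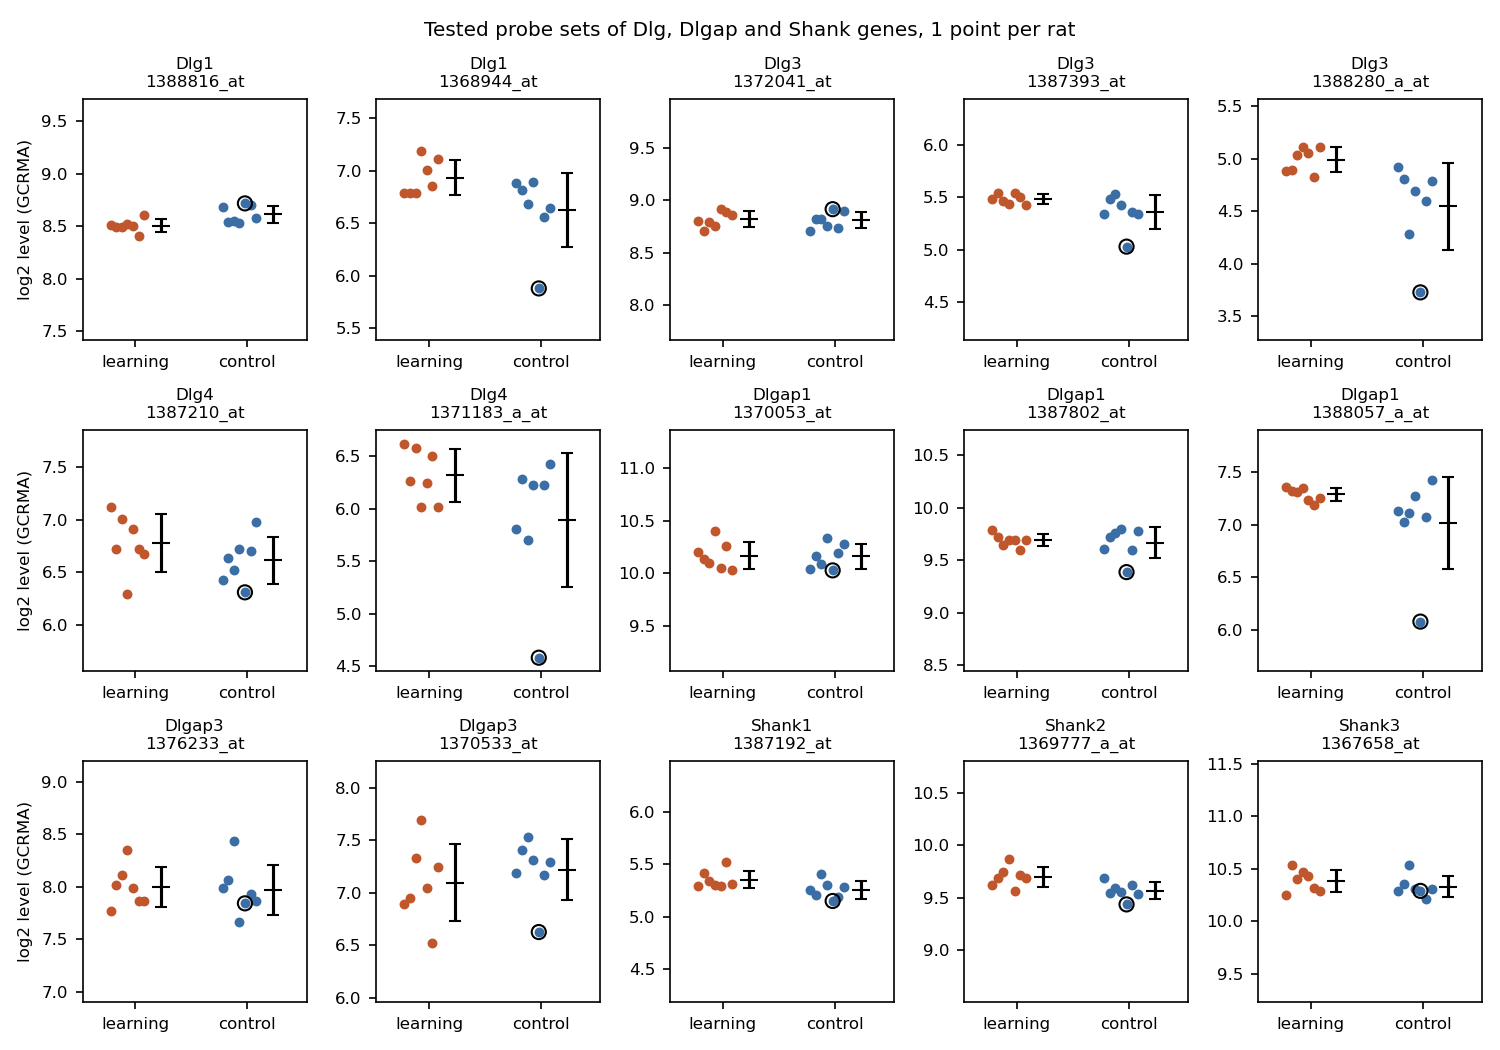
Log2 GCRMA level (vertical axis) at each of the 15 tested probe sets, 1 panel per probe set, in learning rats (left, orange) and control rats (right, blue), 1 point per rat and the mean ± SD beside the points (n = 7 each). All panels span the same range of log2 units, the ring marks control replicate 5, and the groups overlap in every panel.

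Some facts of the arrays bear on these values. Correlations between arrays ran from 0.983 to 0.995, and control replicate 5 had the lowest median correlation with the others (0.989, against 0.992 to 0.994 for the other 13). That array also had the highest 3'/5' signal ratio of the control transcripts Gapdh (0.64 on the log2 scale), beta-actin (1.65) and hexokinase (2.57), which measures RNA integrity and labelling length. The probe set balance is the mean difference between the dimmest and the brightest tested probe set over 348 genes other than the members. Only genes whose dimmest lay on average at least 2 log2 units below the brightest were taken. The balance was -3.25 ± 0.03 in learning arrays and -3.42 ± 0.11 in control arrays (SD, n = 7 each). A two-sided exact permutation test over 3432 assignments gave p = 5.83e-04, its lower limit, and 0.00408 after adjustment over 14 array measures. It was lowest, at -3.65, in control replicate 5. Of 6 listed CA3 markers, 3 have a probe set: Grik4, Bok and Spock1. These passed the dim cutoff, as did all 6 markers of CA1 and CA2. Spock1 was called higher in learning rats (0.28, adjusted p = 0.0257), whereas Grik4 (-0.02) and Bok (0.09 and 0.01) were not called. The level of the CA3 list was 8.16 ± 0.05 in learning rats and 8.07 ± 0.13 in control rats (SD, n = 7 each, exact permutation p = 0.104, adjusted p = 0.238). The level of the CA1 and CA2 list was 8.58 ± 0.15 in learning rats and 8.66 ± 0.23 in control rats (exact permutation p = 0.477, adjusted p = 0.514). That of the dentate granule list was 5.98 ± 0.10 in learning rats and 6.10 ± 0.16 in control rats (exact permutation p = 0.119, adjusted p = 0.238). Beyond these levels, the share of neighbouring subfields in the tissue was not tested. The level of the spike-in controls was 9.19 ± 0.17 in learning arrays and 8.99 ± 0.12 in control arrays (SD, n = 7 each, exact permutation p = 0.00524, adjusted p = 0.0245). Of 9 marker lists, that of the choroid plexus alone passed the exact test, at 4.74 ± 0.13 in learning rats and 5.22 ± 0.27 in control rats (SD, n = 7 each, adjusted p = 0.00408). That level is the mean over the 6 of its 7 genes that have a probe set, dim ones included, and 3 of them passed the dim cutoff. Its range was 4.56 to 4.96 in learning rats and 4.96 to 5.68 in control rats. Of the tested probe sets of 7 astrocyte genes, 3 were called higher in learning rats, where 2.55% of all tested probe sets were. A gene can have several probe sets, so this count is not a share of the 7 genes. Of the choroid plexus list, 1 tested probe set was called lower, where 0.798% of all tested were. The level of the astrocyte list was 10.85 ± 0.05 in learning rats and 10.84 ± 0.08 in control rats (SD, n = 7 each). The part of other cell types in the members' values was not tested. In bulk tissue, fewer cells of a type and less RNA per cell cannot be told apart.

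Control replicate 5 stood apart at the members too. It had the lowest value of all 14 arrays at 9 of the 15 tested probe sets, whereas it was lowest at 10.1% of all tested probe sets. At 1 of the 15, the brightest of Dlg1, it was the highest, as it was at 15% of all tested probe sets. Values that rest on this array are given below with and without it, and without it 11 of the 15 log2 fold changes were above 0, with a median of 0.07 and 0 called. In that fit 43.8% of all tested probe sets were above 0, their median was -0.01, and 249 of 9520 were called.

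Dlg4 encodes PSD-95, the most abundant of the membrane-associated guanylate kinases at mature excitatory synapses. Its brightest probe set (1387210_at) lay at a log2 level of 6.29, 6.72 and 7.12 (lowest, median and highest) in learning rats and at 6.31, 6.64 and 6.98 in control rats. The ranges covered each other almost entirely, and 6 of 7 learning rats lay above the control mean. The log2 fold change was 0.16 (95% interval -0.09 to 0.42, adjusted p = 0.480), which allows a 1.34-fold increase but not a larger one at that level. A dimmer probe set (1371183_a_at) had 6.01, 6.27 and 6.62 in learning rats and 4.58, 6.23 and 6.43 in control rats. The medians were nearly equal, and the lowest value was that of control replicate 5. The log2 fold change of 0.42 (SE 0.23, adjusted p = 0.332) was 0.21 without that array (adjusted p = 0.458). The third probe set of Dlg4 (1389901_at) was dim, between 2.30 and 2.39 on all arrays.

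Dlg1 encodes SAP97, which binds AMPA receptor subunit GluA1 and takes part in its transport to the membrane. Its 2 probe sets differed in sign. The brighter one (1388816_at), designed on an expressed sequence tag, lay at 8.41, 8.50 and 8.61 in learning rats and at 8.53, 8.58 and 8.72 in control rats. All 7 learning rats were below the control mean, although the ranges overlapped. The log2 fold change was -0.11 (SE 0.04, interval -0.20 to -0.02, adjusted p = 0.163). The dimmer one (1368944_at), designed on the RefSeq mRNA, had 6.79, 6.86 and 7.19 in learning rats and 5.88, 6.68 and 6.90 in control rats. Here all 7 learning rats were above the control mean, by 0.31 on the log2 scale (SE 0.13, interval 0.02 to 0.60, adjusted p = 0.214). Without control replicate 5 the values were -0.09 (adjusted p = 0.263) at the brighter and 0.19 (adjusted p = 0.238) at the dimmer probe set.

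Dlg3 encodes SAP102, which traffics NMDA receptors and is prominent early in development. Its brightest probe set (1372041_at) lay at 8.71, 8.80 and 8.92 in learning rats and at 8.71, 8.82 and 8.91 in control rats. The ranges coincided, and the interval of the log2 fold change of 0.0089 was narrow, from -0.08 to 0.10 (adjusted p = 0.934). Its dimmest tested probe set (1388280_a_at) had 4.83, 5.04 and 5.11 in learning rats and 3.73, 4.69 and 4.92 in control rats. Of the control rats 6 of 7 lay below every learning rat, and control replicate 1 lay within the learning range. With a log2 fold change of 0.44 (1.36-fold, SE 0.15, interval 0.13 to 0.76) it had the lowest adjusted p of the 15, 0.111. It was 0.31 without control replicate 5 (adjusted p = 0.0864). A probe set in between (1387393_at) differed by 0.13 (log2, SE 0.06, adjusted p = 0.264) and 0.07 without that array (adjusted p = 0.357).

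Dlg2 encodes PSD-93, the closest relative of PSD-95 in the density. Its sole probe set (1398276_at) fell under the dim cutoff of 3.88, a mean log2 level below which 40% of the probe sets lie. It had 3.56, 3.66 and 4.39 in learning rats and 3.14, 3.34 and 3.68 in control rats. All 7 learning rats lay above the control mean, and 5 of 7 control rats lay below the lowest learning rat. In the fit without a filter the log2 fold change was 0.42 (SE 0.13, adjusted p = 0.159), where 0.996% of 15866 probe sets were called. Signals of this strength may be mostly background, which leaves the size of the difference uncertain.

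Among the SAPAP genes, Dlgap1, whose product GKAP was found as a binding partner of PSD-95, has 3 tested probe sets. Its brightest probe set (1370053_at) lay at 10.03, 10.13 and 10.40 in learning rats and at 10.03, 10.17 and 10.33 in control rats. These ranges were nearly the same, with a log2 fold change of 0.0072 (interval -0.13 to 0.14, adjusted p = 0.965), so that a change above 1.11-fold lies outside the interval. The second probe set (1387802_at) gave 0.03 (SE 0.06, adjusted p = 0.858). At the dimmest (1388057_a_at) the values were 7.19, 7.31 and 7.36 in learning rats and 6.08, 7.11 and 7.43 in control rats. Learning rats were tightly grouped, with an SD of 0.06, while the control SD was 0.44 with replicate 5 and 0.15 without it. The log2 fold change there was 0.27 (SE 0.15, adjusted p = 0.340), and 0.11 without that array (adjusted p = 0.332).

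Dlgap3 encodes SAPAP3, whose loss in mice disturbs corticostriatal synapses. Its brighter probe set (1376233_at) had 7.77, 7.99 and 8.35 in learning rats and 7.67, 7.94 and 8.43 in control rats. The control range enclosed the learning range, and the log2 fold change was 0.03 (interval -0.20 to 0.25, adjusted p = 0.923). The dimmer one (1370533_at) gave -0.12 (SE 0.16, adjusted p = 0.727), with the largest spread among learning rats of all tested members (SD 0.37), and -0.22 without control replicate 5 (adjusted p = 0.457). Dlgap2, which encodes SAPAP2, was dim at its sole probe set (1387552_at), with 2.76, 2.83 and 3.46 in learning rats and 2.73, 2.75 and 2.79 in control rats. Learning replicate 7 was the highest by far, and the log2 fold change without a filter was 0.19 (SE 0.09, adjusted p = 0.380).

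All 3 Shank genes had small positive differences at their tested probe sets, none of them called. Shank2 had 9.56, 9.69 and 9.87 in learning rats and 9.44, 9.55 and 9.69 in control rats (1369777_a_at). Of the learning rats 5 of 7 lay above every control rat. The log2 fold change was 0.13 (1.09-fold, SE 0.05, interval 0.03 to 0.23, adjusted p = 0.145), and 0.11 without control replicate 5 (adjusted p = 0.238). Shank1, which with Shank2 and Shank3 links SAPAP to Homer, had 5.29, 5.31 and 5.52 in learning rats and 5.15, 5.26 and 5.41 in control rats (1387192_at). All 7 learning rats lay above the control mean, by a log2 fold change of 0.10 (interval -0.0017 to 0.20, adjusted p = 0.260). Shank3, the member tied to Phelan-McDermid syndrome in people, had 10.25, 10.40 and 10.53 in learning rats and 10.22, 10.31 and 10.54 in control rats (1367658_at). The ranges coincided, and a change above 1.13-fold lies outside the interval of its log2 fold change of 0.05 (-0.06 to 0.17, adjusted p = 0.626). Further probe sets of Shank1 (1368445_at) and Shank2 (1369776_a_at) were dim, with log2 fold changes of 0.02 and 0.06 in the fit without a filter (adjusted p = 0.734 and 0.427).

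**Figure D2:**
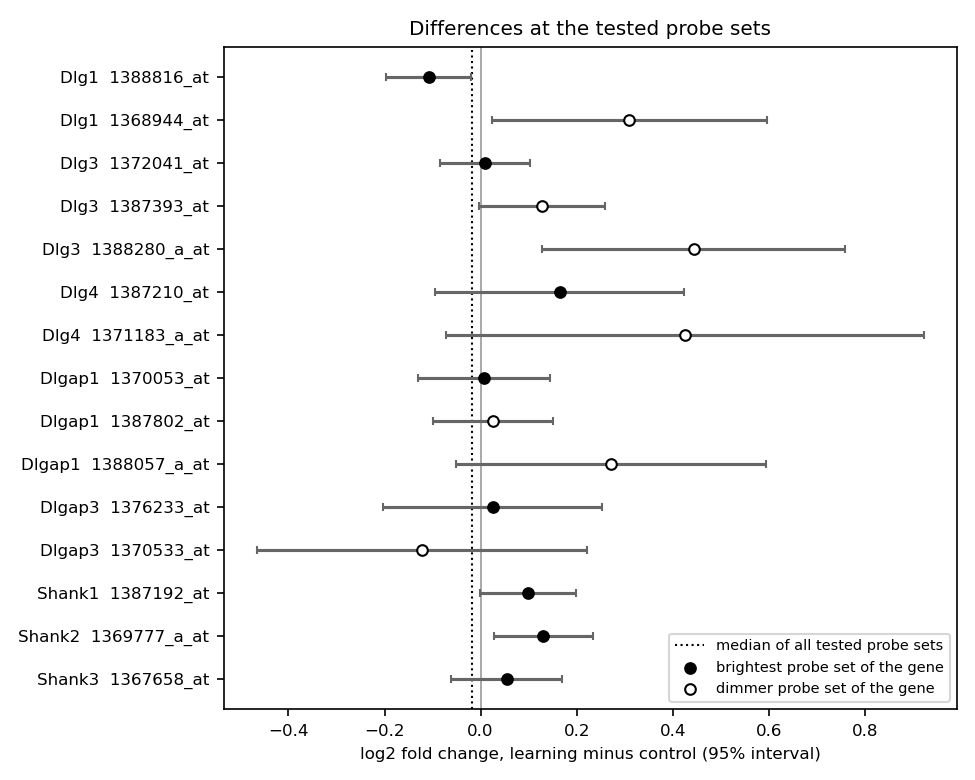
Log2 fold change, learning minus control, with its 95% interval (horizontal axis) at the 15 tested probe sets, filled for the brightest probe set of a gene and open for dimmer ones; the dotted line is the median of all tested probe sets, -0.02. The larger values, 0.27 to 0.44, are at dimmer probe sets of Dlg1, Dlg3, Dlg4 and Dlgap1, where the SE was 0.13 to 0.23; the dimmer probe set of Dlgap3, at -0.12, has an interval of similar width (SE 0.16).

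The members thus gave different values at different probe sets of the same gene. In the 5 genes with several tested probe sets, the dimmest one had a median log2 fold change of 0.31 and the brightest a median of 0.0089. The same split was seen over all 942 such genes, with medians of 0.07 at the dimmest and -0.01 at the brightest. To test it within each gene, the brightest probe set was subtracted from the dimmest on each array, and the difference was fitted with limma over all 942 genes. Called were 15.6% of the genes, 124 higher and 23 lower in learning rats, and 0 of the 5 members. An unadjusted p under 0.05 was found for 2 of the 5 members and for 302 of the 942 genes. The groups did not overlap in 5.41% of the 942 genes and in none of the 5 members.

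For Dlg1 that difference was -1.73, -1.55 and -1.34 (lowest, median and highest, log2) in learning rats and -2.84, -1.87 and -1.64 in control rats. Every learning rat was above the control mean, and 4 of 7 were above every control rat, by 0.42 in the mean (SE 0.15, adjusted p = 0.0689). It was smaller but called without control replicate 5 (0.28, adjusted p = 0.0434). Over all genes, 105 to 152 were called with each array left out in turn. For Dlg3 the values were -4.06, -3.81 and -3.64 in learning rats and -5.18, -4.11 and -3.79 in control rats. The mean difference of 0.43 (SE 0.17, adjusted p = 0.0854) was 0.28 without that array (adjusted p = 0.0769). Dlg4 and Dlgap1 had mean differences of 0.26 each (adjusted p = 0.292 and 0.191), and by 0.09 and 0.13 without control replicate 5. Dlgap3 had -0.15 (adjusted p = 0.449).

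**Figure D3:**
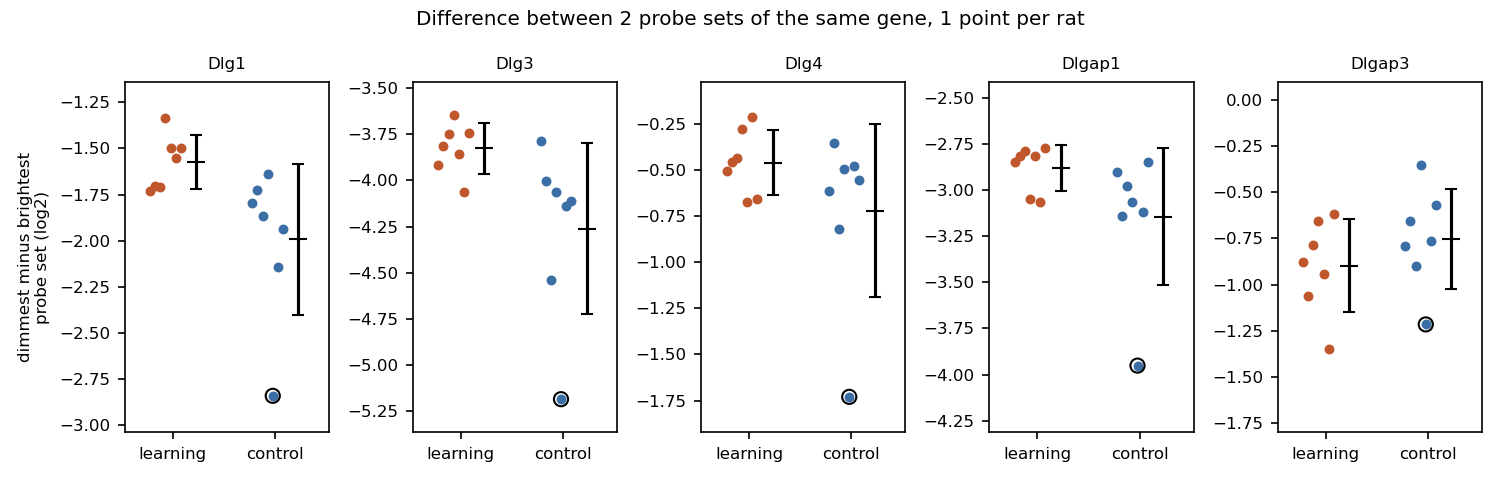
Dimmest minus brightest tested probe set of the same gene (vertical axis, log2) on each array in the 5 genes with several tested probe sets, learning rats left and control rats right, 1 point per rat and mean ± SD beside the points (n = 7 each). The ring marks control replicate 5, the lowest array of Dlg1 (-2.84), Dlg3 (-5.18), Dlg4 (-1.73) and Dlgap1 (-3.95).

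When the fit included the balance of the arrays, the values at the dimmer probe sets changed sign: -0.15 for Dlg1, -0.10 for Dlg3, -0.40 for Dlg4 and -0.31 for Dlgap1, against 0.31, 0.44, 0.42 and 0.27 without a covariate. The dimmer probe set of Dlgap3 kept its sign, at -0.45 against -0.12 without a covariate (adjusted p = 0.602). None of the other 4 was called (adjusted p from 0.482 to 0.857), and no probe set of the array was called in that fit. Differences at the brightest probe sets moved less, to 0.07 for Dlg3, -0.12 for Dlgap1, 0.02 for Shank2 and 0.06 for Shank3. The balance itself differed between the groups, so the covariate can also take out a difference between learning and control rats, and the 2 cannot be told apart by this fit. When the Gapdh ratio was the covariate instead, which was 0.45 ± 0.05 in learning and 0.51 ± 0.06 in control arrays (SD, n = 7 each; exact permutation p = 0.0443, adjusted p = 0.155), the same 4 dimmer probe sets had 0.12, 0.22, 0.16 and 0.03. With the spike-in level as covariate they had 0.35, 0.54, 0.49 and 0.29, and none was called (adjusted p from 0.158 to 0.489). With the beta-actin ratio, which was 1.31 ± 0.03 in learning and 1.36 ± 0.15 in control arrays (exact permutation p = 0.460), the dimmest probe set of Dlg3 was called (0.31, adjusted p = 0.00588). That was the single call at a member probe set among the fits run, and this covariate was added after the data were seen. In that fit 271 of 9520 probe sets were called. Within genes there were further calls in single fits: Dlg3 with the same covariate (0.28, adjusted p = 0.0197) and without control replicate 1 (0.51, adjusted p = 0.0447), and Dlg1 without control replicate 4 (0.48, adjusted p = 0.0464), without control replicate 5 as given above, and when the filter was set at the 60th percentile (0.42, adjusted p = 0.0493).

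**Figure D4:**
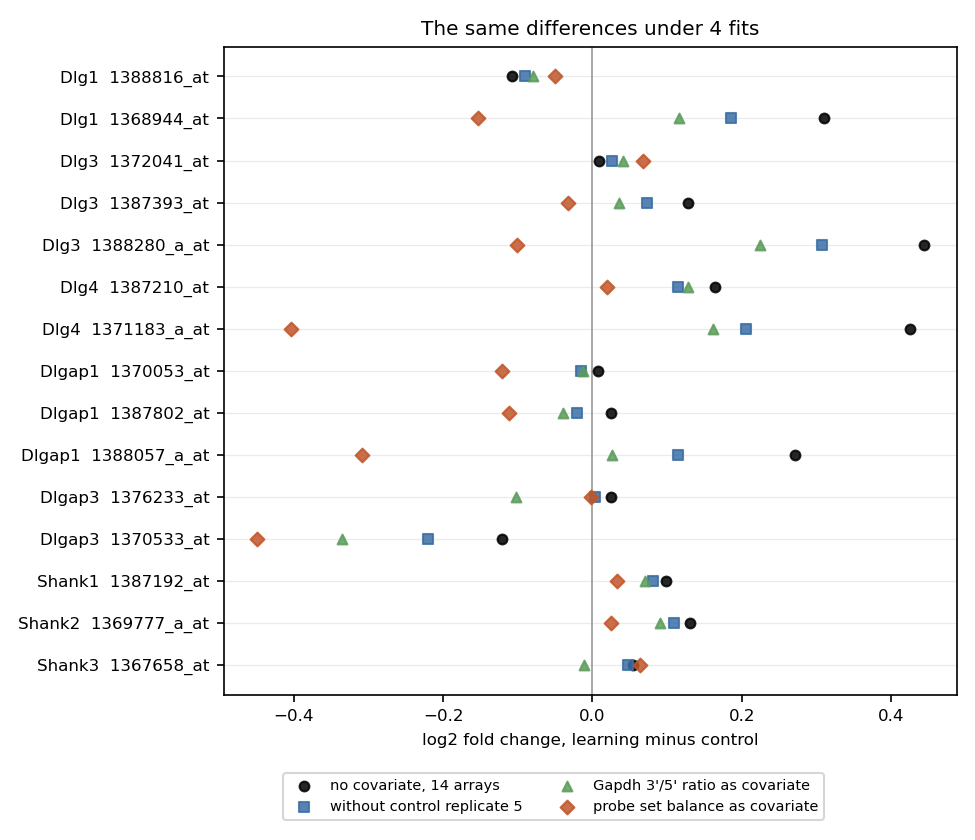
Log2 fold change, learning minus control (horizontal axis), at the 15 tested probe sets in 4 fits: all 14 arrays without covariate, without control replicate 5, with the Gapdh ratio and with the balance as covariate. The dimmer probe sets of Dlg1, Dlg3, Dlg4 and Dlgap1 move from 0.27 to 0.44 without covariate to values below 0 with the balance.

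Genes around the scaffolds were counted in 3 lists. Of 45 other scaffold and adaptor genes of the density, 28 were tested by 44 probe sets, and 2 of these were called, both higher, where 3.35% of all tested probe sets were called. Homer1, which ties Shank to metabotropic glutamate receptors, had a log2 level of 8.12 ± 0.22 in learning rats and 7.45 ± 0.24 in control rats at 1 of its 5 tested probe sets (log2 fold change 0.67, 1.59-fold, adjusted p = 0.00593). Its brightest probe set had 0.11 (adjusted p = 0.339) and the others 0.46, 0.02 and -0.22, none of them called. Cnksr2, a scaffold that joins PSD-95 to Ras signalling, had 7.70 ± 0.11 in learning rats and 7.14 ± 0.14 in control rats at its dimmer probe set (0.56, 1.48-fold, adjusted p = 0.00231) and 0.22 at the brighter (adjusted p = 0.0606). Sipa1l1, a Rap GTPase-activating protein bound to PSD-95, had 0.30 (adjusted p = 0.0585). The probe sets of the brightest signal were those of Dynll2, a dynein light chain that binds SAPAP1 (-0.05, adjusted p = 0.412), and Abi1 (0.14, adjusted p = 0.0826). The median of the list was 0.06, with 27 of 44 probe sets above 0 (42.0% over all tested).

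Of 31 genes listed as membrane partners of the scaffolds, 16 were tested by 19 probe sets. Of these probe sets 2 were called, both higher, against the same 3.35% over all tested. Nlgn1, the neuroligin of excitatory synapses, whose tail binds PSD-95, had 8.02 ± 0.17 in learning rats and 7.52 ± 0.09 in control rats (0.50, 1.42-fold, adjusted p = 0.00323). Grin2a, an NMDA receptor subunit with a PDZ-binding tail, had 5.36 ± 0.51 in learning rats and 3.88 ± 0.40 in control rats (1.47, adjusted p = 0.00323), a control level at the dim cutoff, and 0.23 at its other probe set (adjusted p = 0.102). The potassium channel Kcna1 had 0.21 (adjusted p = 0.133), and the probe sets of the brightest signal, for Lrrc4b and Adgrl1, had -0.02 and 0.02 (adjusted p = 0.823 and 0.913). The list's median was 0.02, and 12 of 19 probe sets were above 0 (42.0% over all tested).

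Of 25 kinases, palmitoyl transferases and other regulators of the scaffolds, 20 were tested by 24 probe sets. The 2 called probe sets, against 3.35% over all tested, belonged to Camk2a, the kinase that phosphorylates several of these proteins. Its brightest had 10.17 ± 0.26 in learning rats and 9.41 ± 0.35 in control rats (0.76, 1.69-fold, adjusted p = 0.0150), the dimmest, which passed the dim cutoff with 4.43 ± 0.20 in learning rats and 3.89 ± 0.32 in control rats, had 0.54 (adjusted p = 0.0381), and the third had 0.04 (adjusted p = 0.953). The call at the dimmest was lost when any 1 of 10 of the 14 arrays was left out, and without a filter, with one at the 20th percentile, with the replicate block and with 5 of the 6 covariates. Mdm2, a ubiquitin ligase that acts on PSD-95, had 0.24 (adjusted p = 0.124), the palmitoyl transferase Zdhhc2 had 0.27 (adjusted p = 0.141), and the 2 probe sets of Camk2b had 0.14 and -0.02 (adjusted p = 0.196 and 0.796). The list's median was 0.03, with 15 of 24 above 0 (42.0% over all tested). None of the 6 called probe sets of the 3 lists was called once the balance was in the fit, where their log2 fold changes were 0.33 for Homer1, 0.37 for Cnksr2, 0.56 for Nlgn1, 0.81 for Grin2a and 0.80 and 0.14 for Camk2a. The call at Homer1 was also lost with the Gapdh ratio (0.59, adjusted p = 0.0706), and that at the brightest Camk2a probe set with the spike-in level (0.65, adjusted p = 0.0973) and the dentate markers (0.64, adjusted p = 0.0934). Those at Cnksr2 and Nlgn1 held in every other alternative run. The call at Grin2a held in every other alternative in which its probe set was tested. The filter with the highest cutoff left that probe set out.

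**Figure D5:**
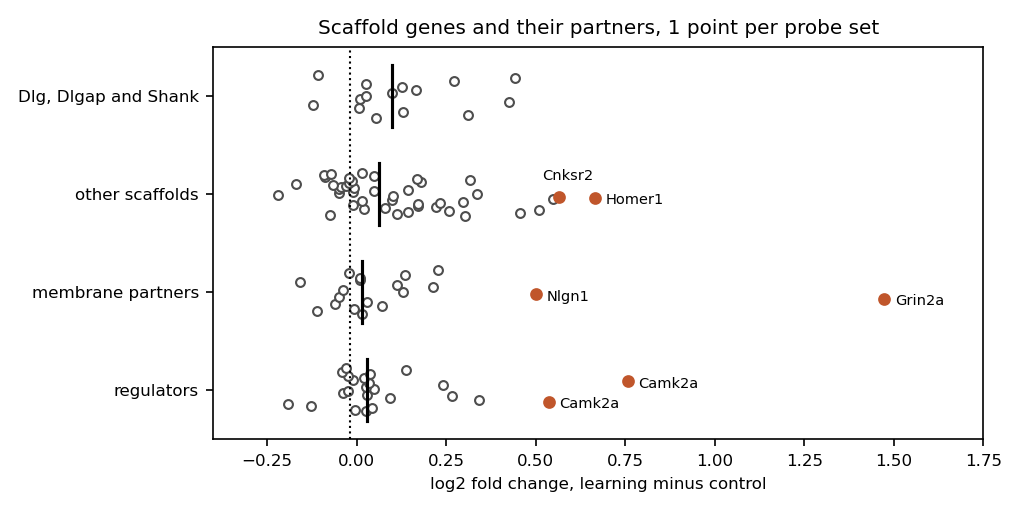
Log2 fold change, learning minus control (horizontal axis), of every tested probe set of the scaffold genes and of 3 lists of partners, 1 point per probe set; filled points are called at an adjusted p under 0.05, vertical bars are medians and the dotted line is the median of all tested probe sets. The scaffold genes (15 probe sets) have 0 called and a median of 0.10, and each list of partners has 2.

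Variation from rat to rat within groups was used to find probe sets that followed the members. Deviations from the group means were correlated over the 14 arrays with those of 7963 to 7965 other single-gene probe sets, as a description without a test, since arrays share their RNA quality and the highest of so many values are high by selection. The brightest Dlg3 probe set was followed most closely by Hmgn2 (Pearson r = 0.91), Tmem222 (0.87), Lage3 (0.86), Myom2 (0.85) and Erlin1 (0.85). For Dlgap1 these were Pcdha13 (0.86), Anxa7 (0.85), Rnf123 (0.85), Eln (0.84) and Sox2 (0.84). For Shank3 they were Rabggta (0.90), Epb41l1 (0.90), Akap12 (0.85), Pfkl (0.80) and Tbc1d23 (0.79). No member was among them for another member, and none of these 15 was called between learning and control rats (adjusted p from 0.141 to 0.953).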

How the data were processed

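The deposited table holds log2 expression values, 1 column per array and rat, which the authors made with GCRMA, per the submitters' processing notes. The version and settings of GCRMA were not given in the sources used here. The log2 scale was inferred from the values, with column means of 5.44 and column medians of 5.07 to 5.09. Close to background GCRMA compresses differences, and values of dim signals are less certain. Precision is limited by the 14 arrays. Genes come from the platform annotation, updated by Entrez ID against the RefSeq table of GRCr8 (12754 of 12789 single-gene probe sets matched). No coordinates are given, since no genome build is named.

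Left out of the main test were 57 control probe sets and 6346 with a mean below the 40th percentile. For the other 9520, limma 3.58.1 (lmFit, then eBayes; R 4.3.3) fitted the group alone. Members and lists were chosen with earlier results of these data known. Every member was described, and from each list the called genes, the 4 lowest p-values and the 2 brightest probe sets were named. Alternatives were other filters, variance moderation, array weights, normalization, covariates, arrays left out and a replicate block. The labels call the samples biological replicates. Whether replicate numbers pair the rats is not known. Deviations were correlated above 0.1 in 2 of 7 same-numbered pairs, and low correlations cannot exclude a pairing.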

Additional observations from a re-analysis of the deposited data

Results flagged for a closer look

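Values that lay far from the rest of their group of 7 were looked for in 78 groups (20 member probe sets, 5 within-gene differences and 14 array measures, in each of 2 groups), of which chance marks about 1 in 20. Found were 15, and 11 of them were control replicate 5. It was far below the other control rats at Dlg1 1368944_at (5.88, next 6.56), Dlg3 1387393_at (5.03, next 5.34), Dlg4 1371183_a_at (4.58, next 5.70), Dlgap1 1388057_a_at (6.08, next 7.03) and Dlgap3 1370533_at (6.63, next 7.17). The same array was lowest in the dimmest minus brightest difference of Dlg1 (-2.84), Dlg4 (-1.73) and Dlgap1 (-3.95). It also had the lowest probe set balance (-3.65) and the highest 3'/5' ratios of Gapdh (0.64) and hexokinase (2.57). The part of RNA quality in its member values was not tested apart from the fits with these ratios as covariates.

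The other 4 lay elsewhere. Learning replicate 7 was high at the dim probe set of Dlgap2 (3.46, next 3.05), and learning replicate 3 at the dim probe set of Shank1 (1.51, next 1.41). Control replicate 3 was high at Shank3 (10.54, next 10.36). Control replicate 6 had the lowest spike-in level of the control group (8.73, next 8.94).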

How the results depend on the processing

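Over 29 alternatives, 431 values of the 15 tested probe sets were recomputed: 397 kept their sign and stayed uncalled, 33 changed sign without being called, and 1 was called (Dlg3 with the beta-actin ratio, added after the data were seen, which also called its within-gene difference, so both counts were 1 there). The count of called members was 0 in all other alternatives, 1 brightest probe set per gene included. The count over all probe sets was 319, and it was 158 without a filter, 39 with the Gapdh ratio, 177 with that of hexokinase, 143 with spike-ins, 65 with the dentate markers and 0 with the balance (839 at an unadjusted p under 0.05). With the beta-actin ratio it was 271. Within-gene calls numbered 147, and 16 with the Gapdh ratio, 45 with the dentate markers and 0 with the balance. They numbered 134 with the beta-actin ratio. With a filter at the 60th percentile they numbered 137, with Dlg1 the 1 member among them (0.42, adjusted p = 0.0493). Calls in the partner lists numbered 6, and 0 with the balance. With each array left out in turn, the ranges were 163 to 352 for all calls, 105 to 152 within genes, 5 to 9 in the partner lists, 0 to 0 for members, and 0 to 1 for members called within genes and for members without overlap. The single within-gene call was Dlg3 without control replicate 1 (adjusted p = 0.0447) and Dlg1 without control replicate 4 (0.0464) or 5 (0.0434). All calls dropped by over 1.5 times without control replicate 1 (163), 2 (166) or 3 (167) and learning replicate 3 (188), 4 (164), 6 (171) or 7 (188). With the replicate block the count was 313, with 0 members called. The cause of these shifts was not tested. Dim probe sets, with levels near background, limit what can be said of Dlg2 and Dlgap2.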
